A study of Mus musculus with 8 samples.

Results

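The genes described here encode splicing regulators and the receptor that carries mRNA out of the nucleus, measured in neutrophils sorted from the inflamed spinal cord of mice. They are the protein-coding genes whose symbols start with Hnrnp, Srsf, Sf3a, Sf3b or U2af, together with Clk1, Clk2, Clk3, Clk4, Ccnl1, Ccnl2 and Nxf1. The rule names 50 annotated genes, of which 49 are among the 23369 genes of the count table. Srsf12 was not analysed here. All 49 passed the filter on low counts that left 12610 genes for testing. They fall into 10 SR proteins, 20 hnRNPs, 3 SF3A and 6 SF3B subunits, 3 U2AF genes, 4 CLK kinases, 2 L-type cyclins and 1 export receptor. The set was proposed with the difference between the time points in view, so it counts as chosen by these same CPM values, and the differences below describe the genes and test nothing.

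Bulk RNA sequencing covered 8 samples of CD45+CD11b+Ly6G+ cells, sorted from the spinal cord of C57BL/6N mice. In both groups experimental autoimmune encephalomyelitis (EAE), an inflammatory disease that models multiple sclerosis, had been induced, and 4 samples were taken at ZT1 and 4 at ZT13, where zeitgeber time (ZT) counts hours from lights-on. Age, sex, the inducing agents and the disease stage are not stated in the labels. Nor do these identify the animal behind a sample, so p-values and SDs may reflect technical spread among the samples alone.

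Before an mRNA leaves the nucleus its introns are removed by the spliceosome. SR proteins bind exons and mostly promote their inclusion, hnRNPs coat the transcript and often oppose it, and the U2AF and SF3 complexes mark the end of the intron and its branch point. CLK kinases phosphorylate SR proteins and release them from nuclear speckles, and L-type cyclins act there with CDK11 kinases. The spliced mRNA is then handed by adaptor proteins to Nxf1, which takes it through the nuclear pore. Many SR and CLK genes limit their own output by retaining introns or including exons that send the transcript to nonsense-mediated decay (NMD).

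Each library held 46152067 to 67873023 counts, so that a count of 0 allows up to 3 counts, or 0.0414 to 0.0674 CPM (counts scaled to library size with TMM factors). This limit covers counting error only. Genes with 1 or more counts numbered 15760 to 17701 at ZT1 and 13945 to 15751 at ZT13, and the 10 most abundant genes took 17.9% to 20.3% and 21.4% to 24.5% of the counts. On principal components ZT13 replicate 3, the library with 13945 detected genes, stood apart from the rest. The 10 neutrophil markers summed to 99622.6 to 129012 CPM at ZT1 and 126339 to 167854 at ZT13, mostly S100a8, S100a9 and Ltf. Not all of them were higher at ZT13: Csf3r ran from 1593 to 2083 CPM at ZT1 and from 1407 to 1719 CPM at ZT13. All 12 monocyte, macrophage and microglia markers were in the table and summed to 1926 to 2559 CPM and 1975 to 2693 CPM, led by Ly6c2, Ccr2 and Csf1r. The 10 T and NK cell markers stayed between 8.85 and 22.2 CPM and the 6 endothelial markers between 10.7 and 24.2 CPM. Of the 6 oligodendrocyte markers 5 were in the table and summed to 139 to 249 CPM, mostly Mbp, and 4 neuronal markers in the table summed to at most 0.630 CPM. Erythroid markers (6 genes) summed to 0.422 to 3.81 CPM at ZT1 and 2.52 to 30.1 CPM at ZT13, 3 B cell markers to at most 5.28 CPM and 4 astrocyte markers to at most 2.67 CPM. The high erythroid sum came from ZT13 replicate 4 alone, where Hbb-bs stood at 15.4 CPM, against 0.970 to 2.48 CPM in the other ZT13 libraries. The part of these other cells in the differences below was not tested, and in bulk RNA fewer cells of a type and less RNA per cell cannot be told apart.

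The start regions of 5 of the genes are shown because they lead the values below or carry a searched motif. They are the 250 bases before a RefSeq transcript start on GRCm38.p6, written 5′ to 3′ on the gene's strand. Capitals mark an E-box (CACGTG, the binding motif of the clock factors CLOCK and BMAL1, the same on both strands) or an ETS core (CCGGAAG or CTTCCGG, its reverse complement).
Nxf1, chr19:8756853-8757102, plus strand: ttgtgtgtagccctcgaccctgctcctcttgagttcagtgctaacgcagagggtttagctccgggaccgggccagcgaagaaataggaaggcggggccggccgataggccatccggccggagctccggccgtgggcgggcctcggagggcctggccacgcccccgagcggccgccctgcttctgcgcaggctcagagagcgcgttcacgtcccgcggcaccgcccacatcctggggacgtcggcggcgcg
Ccnl1, chr3:65958250-65958499, minus strand: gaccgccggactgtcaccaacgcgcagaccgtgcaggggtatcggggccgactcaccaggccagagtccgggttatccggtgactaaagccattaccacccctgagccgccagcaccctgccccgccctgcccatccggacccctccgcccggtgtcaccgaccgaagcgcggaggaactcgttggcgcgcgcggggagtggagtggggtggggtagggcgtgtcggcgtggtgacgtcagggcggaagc
Ccnl2, chr4:155812239-155812488, plus strand: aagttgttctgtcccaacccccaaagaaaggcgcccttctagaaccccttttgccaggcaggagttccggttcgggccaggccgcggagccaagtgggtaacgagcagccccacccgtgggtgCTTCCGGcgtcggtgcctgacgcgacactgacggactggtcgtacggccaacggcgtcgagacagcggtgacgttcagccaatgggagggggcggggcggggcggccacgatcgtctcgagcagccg
Srsf5, chr12:80945249-80945498, plus strand: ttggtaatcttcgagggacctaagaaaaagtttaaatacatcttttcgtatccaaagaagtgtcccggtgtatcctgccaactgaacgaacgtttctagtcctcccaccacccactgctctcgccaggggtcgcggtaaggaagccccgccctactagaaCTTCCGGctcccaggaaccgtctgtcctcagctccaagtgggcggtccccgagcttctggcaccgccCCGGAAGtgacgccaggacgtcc
Clk2, chr3:89164545-89164794, plus strand: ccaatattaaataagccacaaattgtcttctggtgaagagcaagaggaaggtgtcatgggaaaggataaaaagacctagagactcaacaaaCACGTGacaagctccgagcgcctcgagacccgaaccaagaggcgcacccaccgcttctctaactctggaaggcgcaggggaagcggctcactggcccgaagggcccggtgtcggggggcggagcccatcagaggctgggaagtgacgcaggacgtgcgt

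RefSeq windows of 300 bases, 250 before to 50 after a start, were matched to 43 of the 49 genes. An E-box was present in 6 of the 43 (14.0%), namely Clk2, Hnrnpa3, Hnrnpd, Hnrnpf, Hnrnph2 and Hnrnpm, against 12.1% of 8688 tested protein-coding genes and 8.09% of all 27025 genes with a window. None of the 43 had a D-box (TTATGTAA or TTACATAA), which 0.725% of tested protein-coding genes and 1.11% of all genes with a window had. The ETS core was in 14 of 43 (32.6%), against 21.9% and 9.93%. Nxf1 and Ccnl1 held none of these letters in their windows, Ccnl2 held CTTCCGG 127 bases before the start, and Srsf5 held it 90 bases before and CCGGAAG 23 bases before. The E-box of Clk2 lay 159 bases before the start. The median log2 fold change was -0.12 for the 6 genes with an E-box and -0.19 for the 37 without one, and it was -0.15 for the 14 with an ETS core and -0.18 for the 29 without. Both sides of each split held genes of either sign.

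Most of the set had lower values at ZT13, and the export receptor and the L-type cyclins lay furthest from 0. Of the 49 genes 33 (67.3%) had a negative log2 fold change (ZT13 over ZT1), against 52.3% of the 12610 tested genes, with medians of -0.09 and -0.02. Tested protein-coding genes had a median of -0.03, with 53.7% negative. At 8 or more CPM 67.4% of the set and 55.2% of the tested genes were negative. The CLK kinases, L-type cyclins and Nxf1, named singly in the rule, were all negative. Of the 42 genes chosen by symbol prefix 61.9% were negative, with a median of -0.08. The middle 50% of the set lay between -0.23 and 0.03, and of all tested genes between -0.25 and 0.24. Values ran from -0.74 (Nxf1) to 0.47 (Hnrnpa0). Scaled by library totals instead of TMM factors, the median of all tested genes moved to -0.08 and that of the set to -0.16, and 39 of the 49 were negative.

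No gene of the set, and 0% of the 12610 tested genes, passed an adjusted p under 0.05 in the quasi-likelihood test of edgeR. At an unadjusted p under 0.05 stood 6 of the 49 (12.2%), against 9.20% (1160) of all tested genes. Lower at ZT13 among them were Nxf1, Ccnl1, Ccnl2, Srsf5 and Hnrnpk (all tested genes 4.85%), and higher was Sf3b5 (4.35%). The count was 2 without ZT1 replicate 2 (background 6.32%), 14 without ZT1 replicate 3 (background 11.5%) and 11 without ZT13 replicate 3 (background 9.73%). DESeq2 called Nxf1 and Ccnl1, both lower at ZT13, and 1.70% (256) of the 15044 genes it adjusted over, 1.10% in the lower direction. In 5 of the 49 genes every ZT13 library lay below every ZT1 library, namely Nxf1, Ccnl1, Srsf5, Hnrnpk and Sf3b3. Of all tested genes 5.66% had groups that did not overlap, 3.00% lower and 2.66% higher at ZT13. As the rule used this contrast, nothing is read from these counts.

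**Figure D1:**
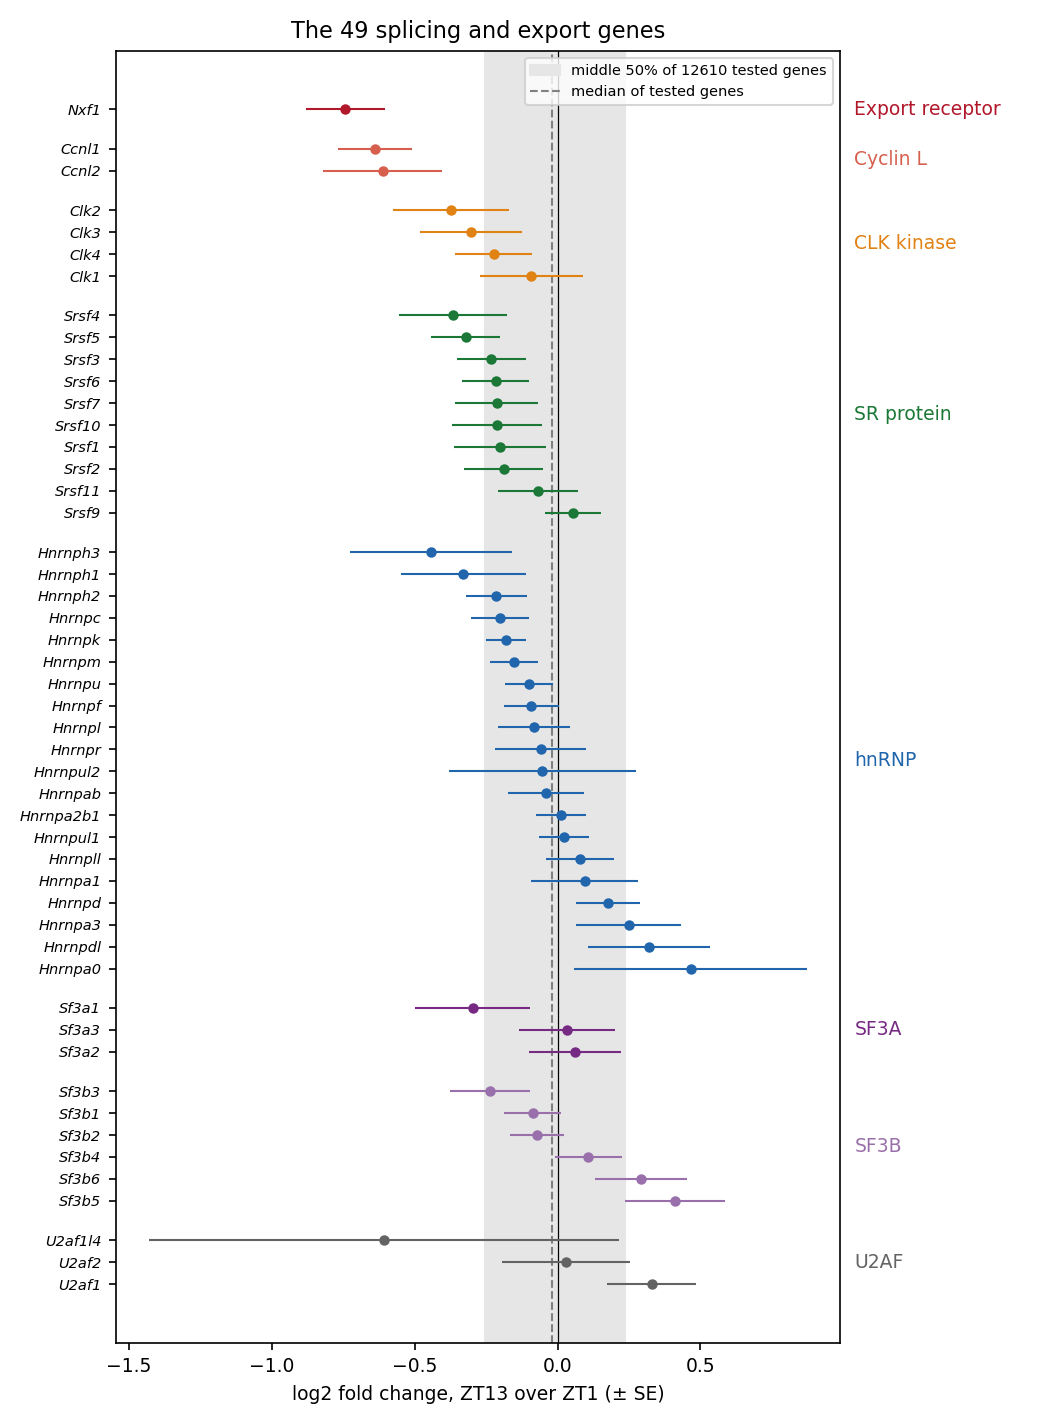
Log2 fold change of ZT13 over ZT1 for the 49 genes by class (points, bars ± SE from edgeR), with the median of the 12610 tested genes as a dashed line and their middle 50% shaded. Among the genes outside the shaded band, Nxf1 at -0.74 and both L-type cyclins lie left of it, and Hnrnpa0, Sf3b5 and U2af1 lie right of it.

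Nxf1 is the receptor that, with its partner Nxt1, moves bulk mRNA through nuclear pores. It stood at 83.1, 79.0, 61.8 and 68.7 CPM in ZT1 replicates 1 to 4 and at 51.4, 39.0, 44.9 and 39.5 CPM in ZT13 replicates 1 to 4. The lowest ZT1 library (replicate 3) thus lay above the highest ZT13 library (replicate 1). The means were 73.1 ± 9.70 and 43.7 ± 5.78 CPM (SD, n = 4 each), a log2 fold change of -0.74 ± 0.14 (SE). The gene (ENSMUSG00000010097.16) lies on GRCm38 chromosome 19 from 8757073 to 8770922, plus strand. Over every alternative normalization, filter, test, block and left-out library its log2 fold change stayed between -0.83 and -0.65. None of the 50-base words of its longest transcript occurs in another annotated gene.

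Nxt1, which pairs with Nxf1, stood at 18.8 ± 1.89 and 22.6 ± 3.81 CPM (0.26 ± 0.17), with overlapping groups. The adaptor Alyref, which passes mRNA to Nxf1, stood at 91.0 ± 8.80 and 97.3 ± 5.86 CPM (0.10 ± 0.10). Neither partner had the lower ZT13 values of the receptor, though no difference between these genes was tested. Of 30 tested mRNA export factors outside the set, 16 were negative, with a median of -0.05 (between -0.11 and -0.01 over all alternatives). Poldip3, an adaptor of the TREX complex, stood at 156 ± 6.03 and 124 ± 19.6 CPM (-0.33 ± 0.12). The cap-binding protein Ncbp3 stood at 30.9 ± 6.41 and 20.3 ± 5.06 CPM (-0.60 ± 0.22). These were the 2 export factors at an unadjusted p under 0.05.

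Ccnl1 and Ccnl2 encode cyclins L1 and L2, which sit in nuclear speckles. Ccnl1 stood at 209.7, 238, 193 and 206 CPM in the ZT1 libraries and at 169, 114, 125 and 136 CPM in the ZT13 libraries. The groups did not overlap, and ZT13 replicate 1 was nearest to the ZT1 range. Its means were 212 ± 18.7 and 136 ± 23.8 CPM, a log2 fold change of -0.64 ± 0.13, which stayed between -0.76 and -0.55 over all alternatives. Ccnl1 (ENSMUSG00000027829.16) lies on chromosome 3 from 65946151 to 65958249, minus strand. An antisense gene, Gm37305, covers 7.37% of its exon bases and averaged 198 counts per library against 9757 for Ccnl1, and reads of the 2 strands cannot be told apart with this library kit.

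Ccnl2 was more spread, at 160.4, 182, 94.8 and 127 CPM at ZT1 and 99.7, 75.1, 115 and 79.8 CPM at ZT13. ZT1 replicate 3 lay below ZT13 replicates 1 and 3, so the groups overlapped. The means were 141 ± 38.2 and 92.3 ± 18.4 CPM (-0.61 ± 0.21). Summed, the 2 cyclins gave 353 ± 55.7 and 228 ± 34.0 CPM. Their kinase partner Cdk11b stood at 112 ± 14.3 and 99.99 ± 17.6 CPM (-0.16 ± 0.14), within the spread between replicates.

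All 4 CLK kinase genes had negative log2 fold changes, with a median of -0.26 (between -0.33 and -0.18 over all alternatives), and all 4 overlapped between the groups. Clk1 stood at 177, 245, 157 and 211 CPM at ZT1 and at 233, 151, 151 and 206 CPM at ZT13. Its high and low libraries were spread over both times (-0.09 ± 0.18), and its log2 fold change ran from -0.26 to 0.03 over the alternatives. Clk2 stood at 30.8, 28.9, 18.5 and 21.4 CPM at ZT1 and at 21.5, 19.7, 15.1 and 20.5 CPM at ZT13 (-0.37 ± 0.20), where ZT1 replicates 1 and 2 were the high libraries. Clk3 stood at 89.6, 75.3, 82.2 and 89.2 CPM and at 82.6, 51.0, 84.7 and 54.2 CPM (-0.30 ± 0.18), with ZT13 replicates 2 and 4 as the low libraries. Clk4 stood at 75.5, 84.0, 60.3 and 92.7 CPM and at 69.7, 62.8, 66.7 and 68.5 CPM (-0.22 ± 0.13). Its ZT13 libraries all fell inside the ZT1 range. The SR protein kinases of the other family, Srpk1 (28.0 ± 4.04 and 26.9 ± 7.35 CPM) and Srpk2 (74.3 ± 8.93 and 74.9 ± 13.03 CPM), differed by less than their SD.

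**Figure D2:**
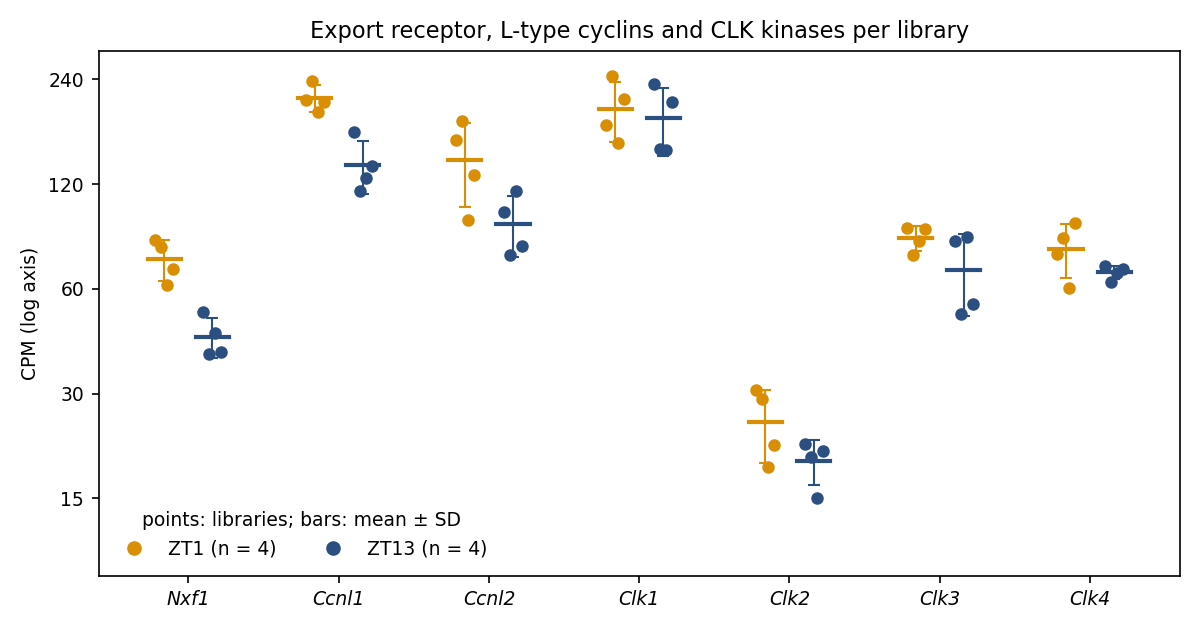
CPM (log axis) of Nxf1, the 2 L-type cyclins and the 4 CLK kinases in each library (points), with mean ± SD per time (n = 4). For Nxf1 and Ccnl1 every ZT13 point lies below every ZT1 point, while the groups of the other 5 genes overlap.

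Of the 10 SR protein genes, 9 had negative log2 fold changes, with a median of -0.21 (between -0.33 and -0.14 over all alternatives), and only Srsf9 was positive (0.05 ± 0.10). With library totals all 10 were negative, and without ZT1 replicate 1 8 were, with a median of -0.14. Summed over the class, SR proteins gave 1091 ± 101 CPM at ZT1 (987 to 1209) and 938 ± 35.9 at ZT13 (893 to 973). These sums did not overlap between the groups. Srsf5 alone gave 353 ± 35.6 and 282 ± 40.0 CPM of them and was the only gene of the 10 without overlap. The lowest ZT1 sum, 987 CPM, held 336 CPM of Srsf5, and the sum of ZT13 replicate 4, 959 CPM, held 227 CPM of it. Without Srsf5 the sums of the groups therefore overlapped, so the separation did not hold for the rest of the class. Sums over genes outside the set were not compared. Srsf5, a regulator of alternative splicing, stood at 335, 406, 336 and 333 CPM at ZT1 and at 320.4, 283, 298 and 227 CPM at ZT13. The groups were separated by the gap between 333 and 320.4 CPM, with ZT1 replicate 2 far above and ZT13 replicate 4 below the others (-0.32 ± 0.12). It (ENSMUSG00000021134.18) lies on chromosome 12 from 80945504 to 80950507, plus strand.

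Srsf4 stood at 22.6, 21.4, 15.6 and 22.4 CPM at ZT1 and at 14.6, 17.0, 19.1 and 13.003 CPM at ZT13 (-0.36 ± 0.19). ZT1 replicate 3 lay within the ZT13 range, and 47.3% of the 50-base words of its longest transcript occur in another gene, so its counts are uncertain. Srsf3, the smallest of the classical SR proteins and an adaptor for Nxf1, stood at 129.99, 168, 119 and 143 CPM and at 119, 126, 106 and 126 CPM (-0.23 ± 0.12), with overlap. Another SR adaptor for Nxf1, Srsf7, stood at 102 ± 16.3 and 88.1 ± 13.2 CPM. The 7 SR genes besides Srsf3, Srsf4 and Srsf5 lay between -0.22 (Srsf6) and 0.05 (Srsf9), and none of them separated the groups.

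The hnRNP class was mixed, with 12 of 20 genes negative and a median of -0.06. That median was -0.02 without ZT1 replicate 1, -0.11 without ZT1 replicate 3, -0.04 without ZT13 replicate 2, -0.00 without ZT13 replicate 3 and -0.11 without ZT13 replicate 4, so no direction is read for the class. Hnrnpk, which binds C-rich RNA, stood at 701, 696, 651 and 704 CPM at ZT1 and at 591, 589.5, 611 and 637 CPM at ZT13. Every ZT13 library lay below every ZT1 library, with ZT1 replicate 3 and ZT13 replicate 4 closest to each other. The difference was small against the level, 688 ± 24.7 and 607 ± 22.1 CPM (-0.18 ± 0.07). Of its 50-base words 37.8% occur in other genes. The gene (ENSMUSG00000021546.19) lies on chromosome 13 from 58391142 to 58403343, minus strand.

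Hnrnpc, which binds runs of uridine, stood at 202, 252, 249 and 222 CPM and at 219, 199.7, 179 and 207 CPM (-0.20 ± 0.10), and ZT1 replicate 1 fell inside the ZT13 range. Hnrnph2, which binds runs of G, stood at 169, 176, 179 and 141 CPM and at 132, 135, 143 and 163 CPM (-0.21 ± 0.11). Here ZT1 replicate 4 was low and ZT13 replicate 4 was high for its group. Its relatives Hnrnph1 (40.1 ± 9.37 and 31.9 ± 7.53 CPM, -0.33 ± 0.22) and Hnrnph3 (8.52 ± 2.41 and 6.27 ± 1.66 CPM, -0.44 ± 0.28) were also negative, with wider errors.

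Hnrnpa2b1, a reader of exon and transport signals, was close to level at 478 ± 48.0 and 482 ± 14.8 CPM (0.01 ± 0.09). The 8 positive hnRNP genes ran up to Hnrnpd (0.18), Hnrnpa3 (0.25), Hnrnpdl (0.32) and Hnrnpa0 (0.47 ± 0.41). Hnrnpa0 was low, at 3.12 ± 0.703 and 4.30 ± 1.74 CPM, and ranged from 1.81 to 5.77 CPM within ZT13 alone. Hnrnpul2 had the widest ZT13 spread of the genes at 8 or more CPM, with 13.5 CPM in replicate 1 and 4.88 CPM in replicate 3.

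The core of branch point and intron end recognition had no shared direction. Of the 12 SF3A, SF3B and U2AF genes 5 were negative, with a median of 0.03 that was -0.02, with 8 negative, under library totals and ran from -0.11 to 0.07 over all alternatives. Sf3a1 stood at 47.3, 39.2, 34.0 and 32.1 CPM at ZT1 and at 31.2, 21.2, 39.4 and 32.3 CPM at ZT13 (-0.30 ± 0.20). Sf3a2 stood at 20.4, 18.6, 15.3 and 18.8 CPM and at 18.7, 17.6, 17.4 and 22.6 CPM, with means of 18.3 ± 2.14 and 19.1 ± 2.40. Sf3a3 stood at 41.3, 35.4, 35.02 and 44.7 CPM and at 36.3, 32.8, 38.4 and 52.4 CPM, with means of 39.1 ± 4.73 and 40.0 ± 8.59. The groups of all 3 SF3A genes overlapped, and the means of the last 2 differed by less than their SD.

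Sf3b2 stood at 268, 311, 284 and 325 CPM at ZT1 and at 259, 268, 305 and 298 CPM at ZT13. Its means were 297 ± 25.7 and 282 ± 22.3 CPM, and those of Sf3b1, the subunit that clamps the branch point, 504 ± 55.3 and 474 ± 37.0 CPM, both within the replicate spread. Sf3b3 stood at 98.3, 69.3, 68.6 and 69.2 CPM at ZT1 and at 67.0, 68.2, 66.4 and 57.4 CPM at ZT13. Its groups did not overlap but lay 0.408 CPM apart, and the log2 fold change of -0.24 ± 0.14 was -0.10 without ZT1 replicate 1. The small subunits Sf3b5 and Sf3b6 had the opposite sign. Sf3b5 stood at 25.4, 26.2, 37.9 and 23.2 CPM and at 40.0, 35.7, 32.8 and 41.2 CPM (0.41 ± 0.18). Sf3b6, which contacts the branch point, stood at 45.9, 59.0, 72.1 and 47.5 CPM and at 74.3, 64.2, 60.6 and 75.8 CPM (0.29 ± 0.16). In both genes ZT1 replicate 3 was the high ZT1 library and reached into the ZT13 range.

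U2af1, the small U2AF subunit that reads the end of the intron, stood at 31.3, 19.9, 25.3 and 27.5 CPM at ZT1 and at 32.9, 30.5, 33.2 and 34.2 CPM at ZT13. ZT1 replicate 1 overlapped the narrow ZT13 group (0.33 ± 0.16), and the value was 0.05 with trends on transcript length and GC content removed. Its partner U2af2 stood at 15.1, 20.1, 26.6 and 14.1 CPM and at 19.9, 22.9, 16.9 and 17.6 CPM, with means of 18.9 ± 5.72 and 19.3 ± 2.72 and overlapping groups. U2af1l4 lay near the limit of detection, at 0.179, 0.107, 0.235 and 0.331 CPM and at 0.236, 0.170, 0.0603 and 0.0898 CPM. It had 10.4 counts on average and shares 97.2% of its 50-base words with other genes. No direction is read for it.

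**Figure D3:**
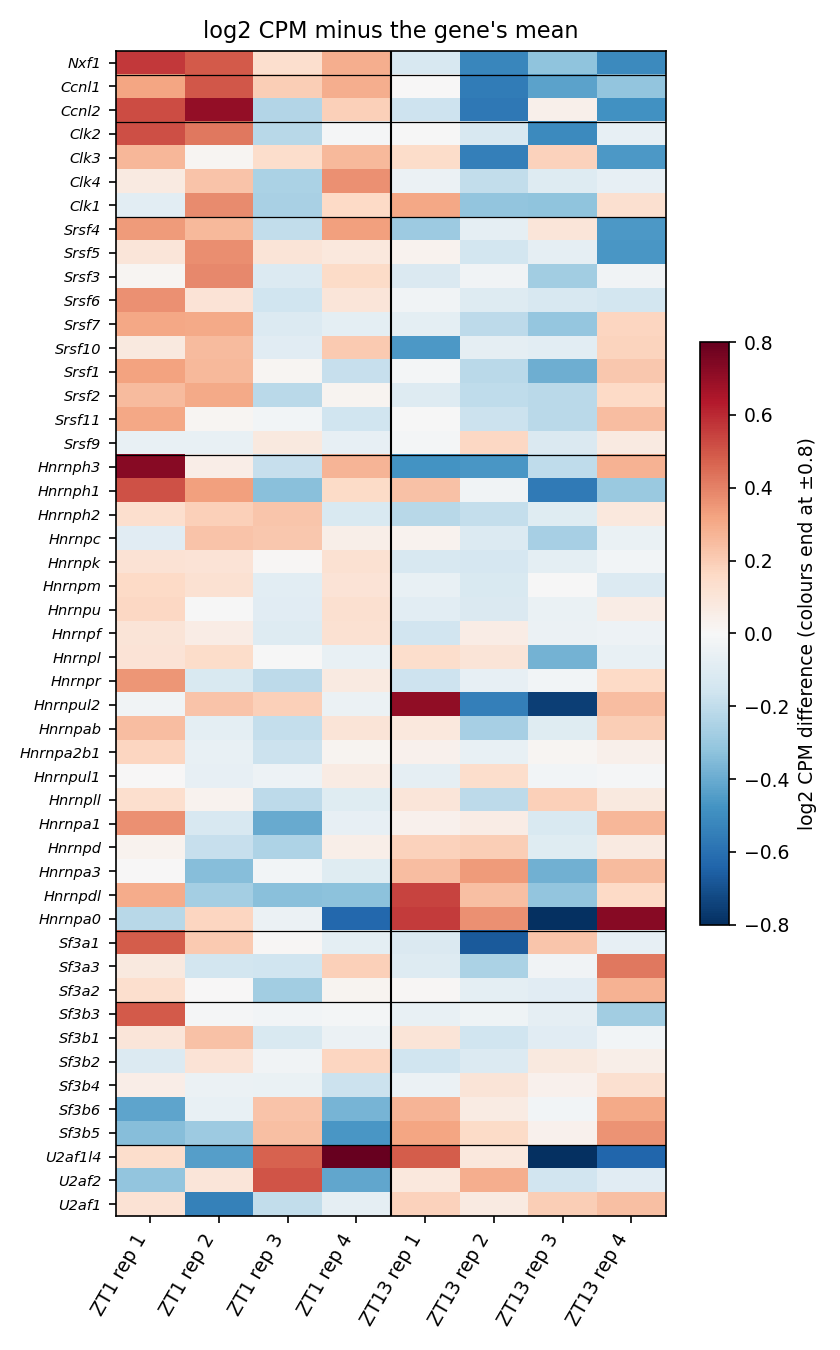
Log2 CPM of each of the 49 genes in the 8 libraries minus the gene's mean over the 8, in rows by class, with colours ending at ±0.8. The ZT1 columns are mostly red for the export receptor, cyclins and SR proteins. ZT1 replicate 3, the lowest ZT1 library for 29 genes, is an exception for Ccnl2 and most SR proteins but not for Nxf1, Ccnl1 and Srsf5. ZT13 replicate 3 is mostly blue.

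Libraries of the same time also differed from each other over much of the set. ZT1 replicate 1 was the highest ZT1 library for 24 of the 49 genes and the highest of all 8 for 18. ZT1 replicate 3, the library with the most detected genes, was the lowest ZT1 library for 29. ZT13 replicate 3, the library that stood apart, was the lowest ZT13 library for 22 genes and the lowest of all 8 for 15. The 49 genes took 0.521% to 0.687% of all counts in the ZT1 libraries and 0.502% to 0.574% in the ZT13 libraries. Their summed level was 6054 ± 373 CPM at ZT1 and 5488 ± 228 CPM at ZT13. Spread within the groups was of the size seen in other genes or below it. For the 46 at 8 or more CPM the median coefficient of variation was 12.7% at ZT1 and 11.99% at ZT13, against 14.8% and 17.4% for 7221 tested genes at that level.

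Levels between genes were compared as CPM per kilobase of the longest annotated transcript, averaged over all 8 libraries (± SD). Hnrnpk was highest at 218 ± 16.3, followed by Hnrnpa2b1 at 132 ± 9.05, Srsf5 at 91.1 ± 14.8, Sf3b2 at 89.9 ± 7.31, Sf3b1 at 78.9 ± 7.48 and Hnrnpc at 76.0 ± 8.79. Among the regulators of these proteins, Ccnl1 stood at 42.1 ± 10.9, Clk1 at 39.4 ± 7.71, Ccnl2 at 27.7 ± 9.02, Clk4 at 20.5 ± 3.11, Clk3 at 18.4 ± 3.68 and Clk2 at 6.96 ± 1.66. Nxf1 was 31st of the 49 at 14.5 ± 4.30. At the low end were Hnrnpr, at 1.33 ± 0.182 with a longest transcript of 21452 bases, and U2af1l4 at 0.199 ± 0.102. Of the 48 neighbouring pairs in this order, 45 overlapped in their ranges over the 8 libraries. The 3 with separate ranges were Hnrnpk over Hnrnpa2b1, Hnrnpa2b1 over Srsf5 and Hnrnpr over U2af1l4. The order depended on the length used: over the union of annotated exons Srsf5 (79.6) came above Hnrnpa2b1 (73.0), while Hnrnpk (100.2) stayed highest.

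**Figure D4:**
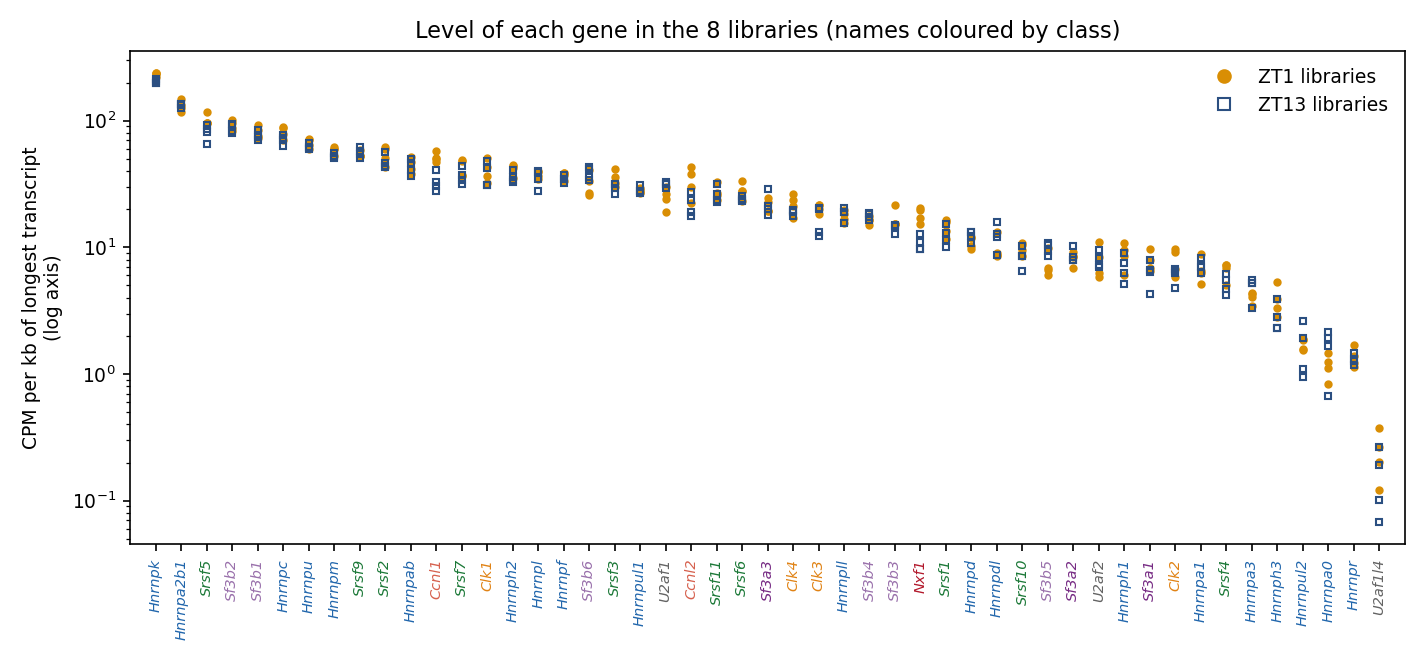
CPM per kilobase of the longest annotated transcript (log axis) of the 49 genes in the 8 libraries, ordered by their mean and with names coloured by class. On this length Hnrnpk and Hnrnpa2b1 lie above all others and most neighbours overlap, whereas over the union of exons Srsf5 came above Hnrnpa2b1.

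An annotation feature that the rule did not use was more frequent in the set than in other genes. Of the 49, 30 (61.2%) have at least 1 annotated transcript of the NMD type, against 30.2% of 10842 tested protein-coding genes, and 39 (79.6%) have a retained-intron transcript, against 60.9%. They also have more annotated transcripts, with a median of 8 against 5, at similar lengths (median longest transcript 3527 and 3372 bases). An NMD transcript is annotated for 9 of 10 SR genes, 4 of 4 CLK genes, both cyclins, Nxf1 and 3 of 3 U2AF genes. It is annotated for 10 of 20 hnRNP genes, 1 of 6 SF3B genes and 0 of 3 SF3A genes. The 30 genes with one had a median of -0.18 (log2) with 22 negative, and the 19 without one -0.05 with 11 negative. Counts per gene cannot separate productive from NMD or intron-retaining transcripts, so it was not measured which of them the values come from.

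Outside the set, 177 tested protein genes of splicing, mRNA export and NMD gave a median of -0.04 (log2), with 99 (55.9%) negative. At an unadjusted p under 0.05 stood 15 of the 177, against 9.20% of all tested genes. Of the 15, 7 were higher and 8 lower at ZT13 (all tested genes 4.35% and 4.85%). In edgeR 0 passed the adjusted threshold. DESeq2 called 1 of the 177, Xab2, against 1.70% of the genes it adjusted over, so nothing is read from these counts. The U1, U2 and Sm proteins, which are parts of snRNPs, lay on the positive side. Of these 13 genes 12 were positive, with a median of 0.35 (between 0.26 and 0.47 over all alternatives). Snrpc of the U1 snRNP stood at 18.8 ± 4.18 and 26.5 ± 3.23 CPM (0.50 ± 0.19). The Sm protein gene Snrpg stood at 10.6 ± 1.15 and 14.9 ± 2.49 CPM (0.50 ± 0.19). Snrpa1 of the U2 snRNP stood at 13.6 ± 3.10 and 19.7 ± 4.28 CPM (0.53 ± 0.23). These were the 3 genes of that list at an unadjusted p under 0.05.

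Of 33 other tested RNA-binding regulators of splicing 30 were negative, with a median of -0.13. Their median longest transcript was 4353 bases, and with the trends on length and GC content removed the median was -0.05 with 26 negative. Sf1, the branch point binding protein, stood at 158 ± 12.9 and 128 ± 13.6 CPM (-0.30 ± 0.10). Celf1 stood at 61.0 ± 5.30 and 47.7 ± 6.94 CPM (-0.36 ± 0.13), and Elavl1, which stabilises AU-rich mRNAs, at 124 ± 11.1 and 102 ± 12.5 CPM (-0.28 ± 0.12). Among 19 SR-related proteins 10 were negative, with a median of -0.02 (between -0.09 and 0.07 over all alternatives), and only Pnn (28.6 ± 6.71 and 20.01 ± 5.09 CPM) had an unadjusted p under 0.05.

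Of the 21 catalytic step factors and helicases 14 were negative, with a median of -0.07 (between -0.14 and -0.01 over all alternatives). Xab2 stood at 84.6 ± 6.33 and 63.4 ± 6.86 CPM (-0.42 ± 0.11) and Syf2 at 113 ± 10.1 and 141 ± 7.84 CPM (0.32 ± 0.09), and in both the groups did not overlap. The helicase Dhx16 stood at 63.2 ± 5.51 and 45.5 ± 11.8 CPM (-0.48 ± 0.18). The 22 U4/U6.U5 and LSm proteins had 11 negative values and a median of 0.03 (between -0.04 and 0.05 over all alternatives), with Lsm4, Lsm6 and Lsm8 higher at an unadjusted p under 0.05. The 8 minor spliceosome proteins (median 0.19, between 0.04 and 0.29 over all alternatives), 14 other kinases and cyclins (-0.04, between -0.11 and 0.08), 7 exon junction complex proteins (0.11, between 0.03 and 0.19) and 10 NMD factors (0.05, between -0.12 and 0.24) held no gene at that level. Of 3 long RNAs kept in the nucleus, Malat1 stood at 123 ± 25.1 and 189 ± 58.5 CPM (0.62 ± 0.22) and the paraspeckle RNA Neat1 at 55.6 ± 9.44 and 23.4 ± 14.8 CPM (-1.25 ± 0.35), both with overlap, and DESeq2 called Neat1. Kcnq1ot1 was low, at 0.578 ± 0.367 and 1.64 ± 1.20 CPM (1.498 ± 1.25).

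**Figure D5:**
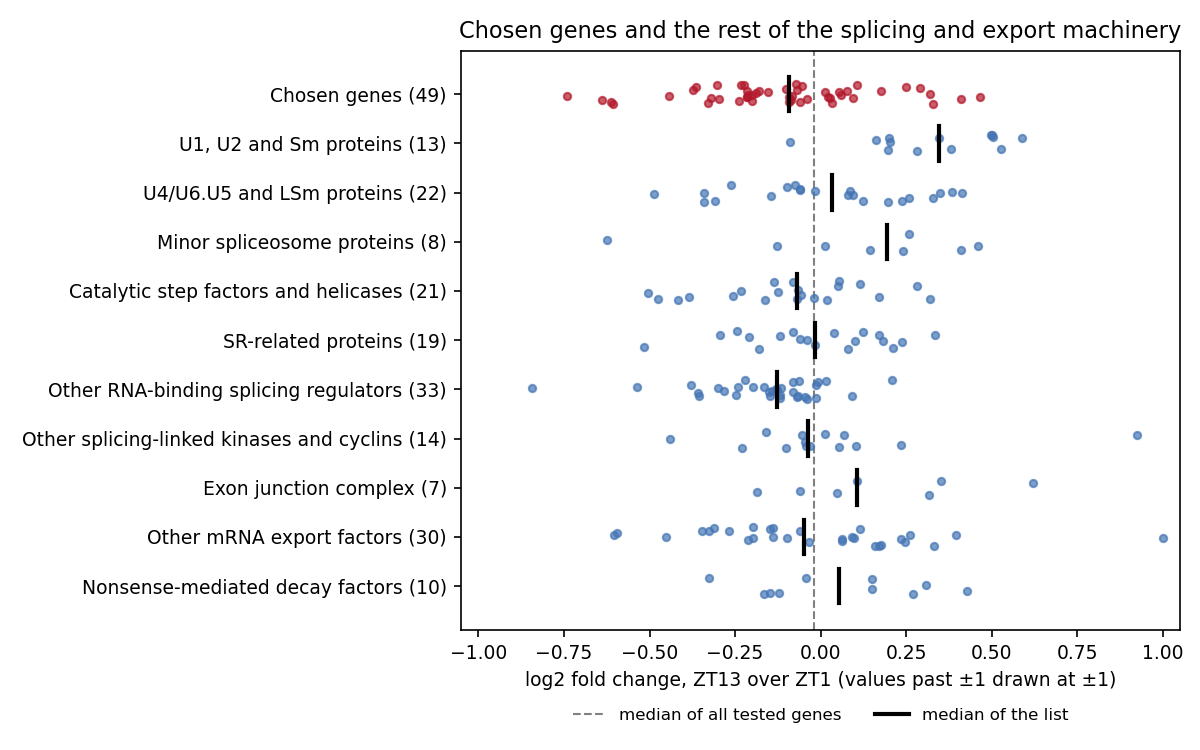
Log2 fold change of ZT13 over ZT1 (points, 1 gene each) for the 49 chosen genes and for 10 lists of other splicing, export and NMD proteins, with list medians as bars and the median of all tested genes as a dashed line. The U1, U2 and Sm proteins lie right of that line but for 1 gene, and 1 export factor past 1 is drawn at 1.

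Transcript length moved with the fold changes over all genes and is given here beside those of the set. The median log2 fold change of tested genes was 0.33 for longest transcripts under 1 kb (1075 genes), 0.12 at 1 to 2 kb, -0.03 at 2 to 3 kb, -0.09 at 3 to 4 kb, -0.10 at 4 to 5 kb and -0.09 above. In the same bins from 1 kb upward the set had 6 genes at 0.08, 11 at -0.08, 14 at -0.18, 10 at -0.30 and 7 at -0.06. The U1, U2 and Sm list was short, with a median longest transcript of 1690 bases. With the trends on length and GC content removed, the median of that list was 0.26, with 1 of 13 genes negative. In the same fit the median of the set was -0.05, Nxf1 was at -0.65 and Ccnl1 at -0.55. Then 5 of the 49, 3 lower and 2 higher, stood at an unadjusted p under 0.05, against 883 of all 12610.

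Several of the counts rest on sequence shared with other genes. For 12 of the 49 more than 20% of the 50-base words of the longest transcript occur in another annotated gene, led after U2af1l4 by Hnrnpf (67.3%), U2af1 (59.4%) and Sf3b4 (51.2%). The shared words of Hnrnpa1 fall in 19 other genes and those of Hnrnpa3 in 46. For 13 genes no word is shared, among them Nxf1, Ccnl2, Clk1, Clk2, Clk4, Srsf6, Srsf9, Sf3b1 and Hnrnpu. Exons of 18 of the genes overlap a gene on the opposite strand, and reads of the 2 strands cannot be told apart. Plekhj1 covers 16.1% of the exon bases of Sf3a2 and averaged 1862.5 counts per library against 1032 for Sf3a2. Edc3 covers 15.2% of those of Clk3 and averaged 2070 counts against 4275 for Clk3. The counts of Sf3a2 and Clk3 are uncertain to that extent.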

How the data were processed

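Per the labels' protocols, RNA of sorted cells was amplified with SMART-Seq v4, and Nextera XT libraries, which do not mark the strand, were read as single reads of 50 bases. The deposited values are raw counts of reads per gene, 1 column per library, made by the authors. The submitters' processing notes name FastQC, STAR 2.7.10b, featureCounts, Subread 2.0.3, DESeq2 1.46.0 and build GRCm38. What each tool did, how strand and multiply mapped reads were handled and which gene annotation was counted is not stated there or in the labels. Of 23369 identifiers 22231 matched GENCODE M21 with versions ignored, and the other 1138 held 0.121% of the counts. Names, coordinates and lengths come from that release, which differs from the one that was counted.

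Genes were tested with edgeR 4.0.16 (filterByExpr by group with a minimum count of 10, TMM, robust quasi-likelihood F-tests, Benjamini-Hochberg adjustment over 12610 genes, threshold 0.05). An SE is the absolute log2 fold change over the square root of F. Alternatives were DESeq2 1.42.0, limma-voom (limma 3.58.1), other scaling factors and filters, removed length and GC trends, replicate blocks and each library left out. The fit was tested on simulated data. Genes named with all values are Nxf1, the cyclins and CLK kinases, and in each other class the highest per kilobase, those with the 3 smallest p and those whose groups do not overlap. Elsewhere up to 3 genes per list with the smallest p and the partners Nxt1, Alyref, Srpk1, Srpk2 and Cdk11b are named; Srsf6, Srsf7, Srsf9, Hnrnpa0, Hnrnpa2b1, Hnrnpa3, Hnrnpd, Hnrnpdl, Hnrnph1, Hnrnph3, Hnrnpul2 and Sf3b1 were added after their values were seen. The genes, lists and tests were chosen with earlier results of these data known.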

Additional observations from a re-analysis of the deposited data

Results flagged for a closer look

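In 4 of 60 groups of 4 values (per time, the class sums and the 23 genes given library by library) 1 library lay far from the other 3 by Dixon's criterion, which chance meets in about 1 in 20 groups. Of these genes 16 were picked by level, small p or lack of overlap, so that rate need not hold for them. Sf3b3 was at 98.3 CPM in ZT1 replicate 1, where the nearest ZT1 library was at 69.3. The same gene was at 57.4 CPM in ZT13 replicate 4, with the nearest at 66.4. Srsf5 was at 406 CPM in ZT1 replicate 2, with the nearest at 336. Hnrnpk was at 651 CPM in ZT1 replicate 3, with the nearest at 696.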

How the results depend on the processing

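The 0 calls over all genes in edgeR became 256 with DESeq2 and 118 with DESeq2 on the genes kept by the filter, an alternative chosen after seeing the data; the 0 calls among the 49 became 2 and 2. Genes of the set at an unadjusted p under 0.05, 6 in all, numbered 2 to 14 with 1 library left out (background 6.00% to 11.5%). With the replicate block from numbers in library names they numbered 12 (background 9.48%), and with numbers from the titles 5 (background 7.71%). Same-numbered samples showed little shared deviation from their group means. Their deviations correlated at -0.04 to 0.02 over the 4 title pairs and at -0.00 to 0.05 over the 3 library-name pairs. By these numbers 0 and 1 of the ZT1 samples correlated best with their own number. Whether samples were handled in pairs cannot be told from such correlations. Between 31 and 39 of the 49 were negative, and their median log2 fold change stayed between -0.19 and -0.05. The smallest edgeR adjusted p of Nxf1 over the alternatives was 0.102, without ZT1 replicate 3, and the largest 0.631. Of the 10 genes highest per kilobase, 8 were also among the 10 highest with the union of annotated exons as length. The low counts and shared sequence of U2af1l4 limit what can be said of it. The cause of these shifts was not tested.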
